A study of Homo sapiens with 5 samples.

Results

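The serine/arginine-rich (SR) splicing factor mRNAs described here are those of SRSF1, SRSF2, SRSF3, SRSF4, SRSF5, SRSF6, SRSF7, SRSF9, SRSF10 and SRSF11, chosen by name. They are 10 of the 56632 gene identifiers in each deposited table, and all 10 were among the 11764 genes with a mean FPKM (fragments per kb of transcript, scaled to the mapped fragments of the library) of at least 1 over the 5 libraries, here called the analysed genes. RIPseq sequences the RNA that comes down with an immunoprecipitated protein, and here it addressed which transcripts are bound by CBFB, the partner subunit of the RUNX transcription factors, and by hnRNPK, a KH-domain protein known for binding C-rich RNA. The 5 libraries came from untreated MCF10A, an immortalized, non-tumorigenic human breast epithelial line. A stable derivative expressing FLAG-tagged CBFB gave 1 input and 1 RIP with FLAG antibody, and parental MCF10A gave 1 input and 2 RIP repeats with hnRNPK antibody. The study made the line for its FLAG pulldowns from CBFB knockout MCF10A, and the labels do not state whether the RIP line had that background. Whether the derivative was 1 clone and which promoter drove the tagged protein is not given in the sources used here. Nor is it given whether the hnRNPK repeats came from separate cultures, so the spread between the repeats may be technical. No mock immunoprecipitation was analysed here.

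SR proteins carry RNA recognition motifs and a tail rich in arginine and serine dipeptides. They bind exonic enhancers, recruit the spliceosome to nearby splice sites, and several of them also act in mRNA export and translation. SR genes are known for regulating their own output, since retained introns and poison exons in their transcripts send the RNA to nuclear retention or to nonsense-mediated decay. SRSF1, SRSF4, SRSF5, SRSF6 and SRSF9 carry a pair of RNA recognition motifs, whereas SRSF2, SRSF3, SRSF7, SRSF10 and SRSF11 carry a single one.

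Because of this preference of hnRNPK, the window of 30 bases with the most C in the principal transcript is shown for the 3 mRNAs with the highest and the 3 with the lowest hnRNPK enrichment. The sequences were read 5′ to 3′ from the GENCODE 29 transcripts, and positions are those of GRCh38. Capitals mark the longest run of C, or the first of several equally long. The submitters' notes name hg19 as the build, and the deposited tables hold no coordinates.
SRSF1: ccttccgcttctcttcctctgtctCCCCCC
SRSF11: gactcctgcctactcctaaCCCacttaccc
SRSF4: ccgtCCCgccgcccgcccgttgccgccgcc
SRSF3: gCCCacctccctcttggggtcgtcgccctc
SRSF7: ctgtttccgCCCagctcctttgtgccgcgc
SRSF5: cgagttctcgCCCCCgaccccacccaccgc
The SRSF1 window lies in the 5′ UTR, in exon 1 of 4 (chr17:58007275-58007304, minus strand), and holds 17 C with a longest run of 6. The SRSF11 window is coding sequence in exon 4 of 13 (chr1:70232346-70232375, plus strand) with 15 C. The SRSF4 window lies in the 5′ UTR, in exon 1 of 6 (chr1:29181836-29181865, minus strand), with 19 C. At the other end of the order, the SRSF3 window is coding sequence in exon 3 of 6 (chr6:36598914-36598943, plus strand) with 15 C. The SRSF7 window lies in the 5′ UTR, in exon 1 of 8 (chr2:38751432-38751461, minus strand), with 13 C. The SRSF5 window lies in the 5′ UTR, in exon 2 of 9 (chr14:69766934-69766963, plus strand), with 18 C and a longest run of 5. The principal transcript is not always the RNA measured: for SRSF5 it has 2815 nt, and its window starts at nt 1113, whereas reads in the parental input were assigned to transcripts with a mean of 888 nt. For SRSF3 the lengths are 4222 and 1978 nt. Whether the windows were present in the RNA recovered is therefore not known, and no site of contact is known from these data.

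The libraries held 69786576 to 106855647 expected counts. The 37 mitochondrial genes took 4.27% and 11.2% of the counts in the FLAG-CBFB cell input and the parental input, but 62.2% with FLAG antibody and 84.5% and 86.6% with hnRNPK antibody, which lowers the FPKM of every other gene. A RIP library gives shares of the RNA recovered, so less SR mRNA and more of another RNA cannot be told apart. For this reason enrichment is given as log2(FPKM + 1) in the RIP minus that in its own input, from which the mean over the 11764 analysed genes was subtracted, and an enrichment past 2 in either direction (4-fold) was called. The mean that was subtracted was -1.34 for FLAG-CBFB and -2.61 and -2.68 for the hnRNPK repeats. The 8 basal mammary epithelial markers looked for, such as KRT5 and TP63, had 1.81 to 1974 FPKM in the inputs, whereas ESR1 and PGR reached at most 0.71 FPKM and PTPRC, DES and MYH11 at most 0.11. RUNX1, the transcript the study started from, had an enrichment of 2.13 with FLAG-CBFB and 3.09 ± 0.28 (SD, n = 2) with hnRNPK, and GAPDH, its unbound control, -0.18 and -2.69 ± 0.04.

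All 10 SR mRNAs were well expressed in MCF10A. Their FPKM was 53.6 to 199 in the FLAG-CBFB cell input and 51.7 to 204 in the parental input, with 6637 to 36936 expected counts each. SRSF5, an SR protein long known as inducible by growth signals, had the highest level in both inputs, followed by SRSF1, the founding member of the family. SRSF6 had the lowest level in both. The inputs differed little for this family: the centred log2 difference, FLAG-CBFB cells minus parental cells, lay between -0.18 (SRSF7) and 0.23 (SRSF3) with a median of 0.00, and none of the 10 was past 2 in either direction. With 1 input per line these differences have no replicate error.

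In the RIPs the levels and their order changed. FPKM of the SR mRNAs was 12.5 to 55.8 in the FLAG-CBFB RIP, which is 20.1% to 34.1% of the input. In the hnRNPK RIPs it was 1.59 to 16.3, which is 2.40% to 9.52% of the input. SRSF3 ranked first with FLAG-CBFB and SRSF1 in both hnRNPK repeats. SRSF5, first in both inputs, ranked 6 of 10 with FLAG-CBFB and 4 and 6 in the hnRNPK repeats. SRSF6 was last in both hnRNPK repeats too. Of the counts outside mitochondrial genes, the 10 mRNAs together took 0.207% in the FLAG-CBFB cell input and 0.158% in the FLAG-CBFB RIP. Parental cells had 0.1998% in their input but 0.0599% and 0.0759% in the hnRNPK RIPs.

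**Figure D1:**
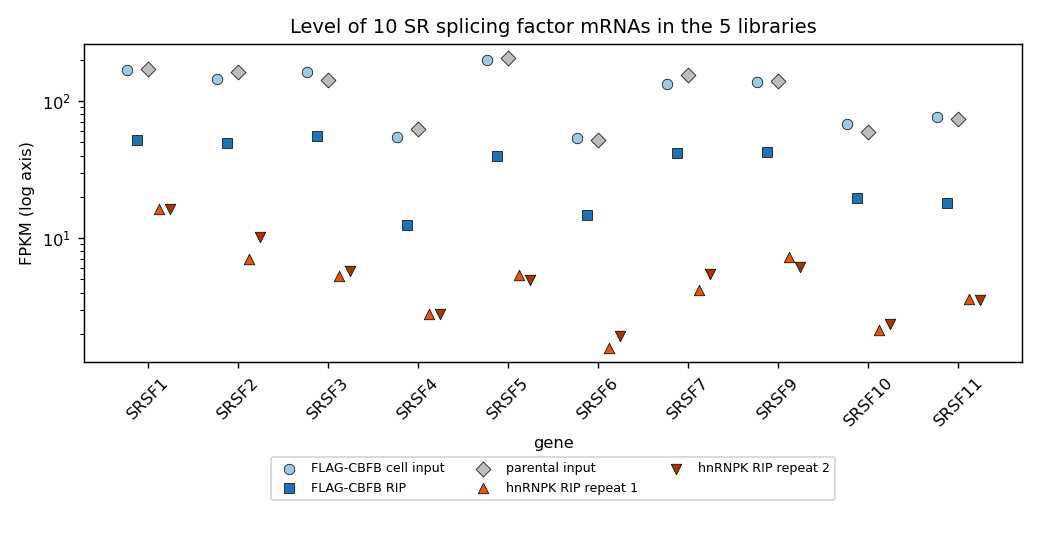
Level of each of the 10 SR mRNAs in FPKM on a log axis, with 1 point for each of the 5 libraries (2 inputs, 1 FLAG-CBFB RIP and 2 hnRNPK repeats). Both inputs lie between 51.7 and 204, the FLAG-CBFB RIP between 12.5 and 55.8, and the hnRNPK RIPs between 1.59 and 16.3, where SRSF1 stands highest.

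No SR mRNA was called in the FLAG-CBFB RIP. Their enrichment ran from -0.95 (SRSF5) to -0.19 (SRSF3), with a median of -0.38 against -0.19 over all analysed genes, of which 64.9% were below 0. Of the 1515 analysed genes of like abundance, with a mean input FPKM within the range of the SR mRNAs, 79.6% were below 0 (median -0.28). Because 1 is added to the FPKM, genes of low input FPKM could not fall below -2, so the share below it is not matched on abundance. None of the 10 was above 2, where 4.37% of analysed genes were called, and none was below -2, where 0.0935% were. With 1 library in each arm these are values without a test. The 95% counting error of each was 0.03 to 0.07, and it covers counting error only.

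Among the mRNAs of SR proteins with a single RNA recognition motif, SRSF3, which also links mRNAs to the export receptor, had 163 FPKM in the FLAG-CBFB cell input and 55.8 in the RIP, an enrichment of -0.19. SRSF2, a classical marker of nuclear speckles, had 145 and 49.0 FPKM (-0.21), and SRSF7, an export adaptor with a zinc knuckle, 132 and 41.4 FPKM (-0.31). These values lay close to that of the median gene. SRSF10, which represses splicing when dephosphorylated, had 68.1 and 19.6 FPKM (-0.41), and SRSF11 had 75.8 and 18.0 FPKM (-0.67).

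Among those with a pair of motifs, SRSF9 had 136 FPKM in the input and 42.5 in the RIP (-0.32). SRSF1 had 168 and 51.5 FPKM (-0.35), and SRSF6 had 53.6 and 14.8 FPKM (-0.45). These sat beside the upper members of the other group. SRSF4, which has one of the longest arginine and serine tails of the family, had 54.5 and 12.5 FPKM (-0.69). SRSF5 had 199 and 39.9 FPKM, and its enrichment of -0.95 exceeded that of only 4.81% of analysed genes. Neighbours in the order such as SRSF3 and SRSF2, or SRSF7 and SRSF9, differed by less than their counting errors. On this scale SRSF5 was lower than SRSF4, the next above it, by more than both errors together. That order turned on log2 CPM (counts scaled to library size, not to transcript length). With TMM (trimmed mean of M-values) factors SRSF4 was lowest at -0.37, and SRSF5 was at -0.12.

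In the hnRNPK RIPs every SR mRNA was below the mean gene in both repeats. The median enrichment of the 10 was -1.56 against -0.11 over all analysed genes. Genes of like abundance were mostly below the mean gene too: of the 1515, 86.9% were below 0, with a median of -1.64. On log2(FPKM + 1), genes of low input FPKM could not fall below -2 here either, nor the lowest of them below 0. The values over all analysed genes are therefore not matched on abundance. None of the 10 was above 2, where 8.20% of analysed genes were called, and 2, SRSF5 and SRSF7, were below -2, where 6.24% were. Both calls ended in 6 of the 11 other settings, those with a pseudocount of 0.1, without mitochondrial genes, with a filter at a mean FPKM of 5, with log2 CPM under either set of factors, or centred on genes of like abundance. With the opposite input SRSF3 (-2.04) took the place of SRSF7 (-1.91). The SD between the repeats was 0.03 to 0.40 (n = 2 for each value below). It holds no error of the input, which was 1 library.

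SRSF1 stood above the rest of the family. Its FPKM was 171 in the parental input against 16.3 and 16.2 in the hnRNPK repeats, with 3354 and 3046 expected counts, and its enrichment was -0.68 ± 0.04. SRSF1 was higher than each of the other 9 mRNAs in both repeats, by 0.53 to 1.79 on the log2 scale, with mean differences between 0.71 (SRSF11) and 1.74 (SRSF5). Each mean difference was larger than the SD of that difference between the repeats, which was at most 0.36. In the FLAG-CBFB RIP SRSF1 had no such place. SRSF2 and SRSF3 were higher, and SRSF7 and SRSF9 were higher by less than both counting errors together. With log2 CPM and TMM factors SRSF3 (0.26) alone was above SRSF1 (0.14) for FLAG-CBFB. SRSF1 encodes a factor that acts in splicing, in nonsense-mediated decay and in translation, and that is a known oncoprotein in breast epithelium.

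SRSF5 stood lowest. Its FPKM was 204 in the parental input against 5.40 and 4.91 in the hnRNPK repeats, an enrichment of -2.42 ± 0.03 that exceeded that of only 2.28% of analysed genes. SRSF7 followed, with 154 FPKM in the input and 4.21 and 5.50 in the repeats, and an enrichment of -2.09 ± 0.28. Its repeats lay on either side of the threshold, at -2.29 and -1.90, so that only SRSF5 was below -2 in both. With log2 CPM and either set of factors SRSF7 was the lowest of the family instead. With TMM factors it was at -1.10, and SRSF6 and SRSF5 were at -1.04. SRSF3, the closest relative of SRSF7, had 142 FPKM in the input and 5.32 and 5.73 in the repeats (-1.81 ± 0.11).

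The other 6 mRNAs lay between -1.61 and -1.38. SRSF11 had 73.7 FPKM in the parental input against 3.62 and 3.55 in the repeats (-1.38 ± 0.03), and SRSF4 had 62.5 against 2.79 and 2.80 (-1.42 ± 0.05). The repeats of both were nearly equal. SRSF2 had 162 FPKM against 6.98 and 10.2, and at -1.46 ± 0.40 it had the widest spread of the 10, with repeat 2 at 1.47 times repeat 1 in FPKM. SRSF9 had 139 FPKM against 7.27 and 6.15 (-1.55 ± 0.10). SRSF10 had 59.8 FPKM against 2.15 and 2.36 (-1.58 ± 0.12), and SRSF6 had 51.7 against 1.59 and 1.93 (-1.61 ± 0.18). Neighbours among these 6 differed by less than the larger of their SDs. Their place also depended on the pseudocount: with 0.1, SRSF6 (-1.36) and SRSF10 (-1.23) were below SRSF3 (-1.22). Proteins with a pair of motifs and those with a single one were mixed along the order.

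**Figure D2:**
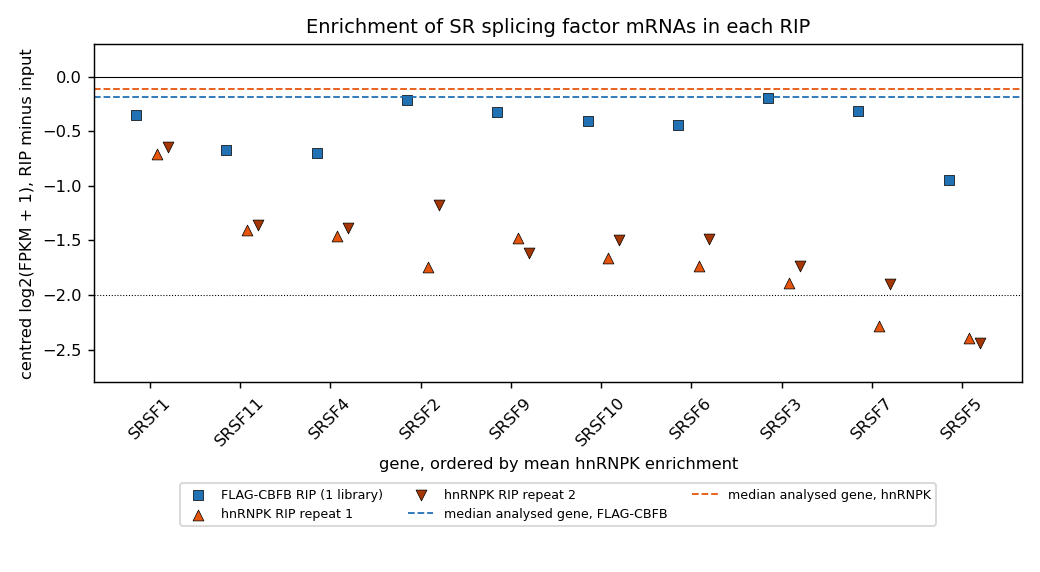
Centred enrichment, log2(FPKM + 1) in the RIP minus its input, of the 10 SR mRNAs for FLAG-CBFB (squares, 1 library) and for each hnRNPK repeat (triangles), ordered by the hnRNPK mean. Dashed lines give the median analysed gene (-0.19 and -0.11) and the dotted line the threshold of -2. On this scale every hnRNPK point lies below the FLAG-CBFB point of the same gene, with SRSF1 highest and SRSF5 lowest.

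On this scale the hnRNPK value was below the FLAG-CBFB value for all 10 mRNAs in both repeats, which held for 42.6% of all analysed genes, a share that is not matched on abundance. For the mean of the repeats it held for all 10 in 5 of 11 other settings. In the other 6 settings SRSF1 turned the other way, at 0.20 for hnRNPK against -0.12 for FLAG-CBFB with FPKM rescaled without mitochondrial genes, for instance, and SRSF11 or SRSF4 turned with it in 3 of them. The median difference, hnRNPK minus FLAG-CBFB, was -1.20 for the SR mRNAs and 0.10 for all analysed genes. It was smallest for SRSF1 (-0.33) and widest for SRSF7 (-1.78) and SRSF3 (-1.62). The 0.10 is not matched on abundance either. The 1515 genes of like abundance had a median of -1.64 for hnRNPK and of -0.28 for FLAG-CBFB, so a low hnRNPK value was not particular to the SR mRNAs. The RIPs used different antibodies, cells and inputs, and FLAG-CBFB had 1 library, so the difference between them was not tested.

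The position of the family against the median gene moved with the scale. Abundant genes as a class had low values on this scale in the hnRNPK RIPs. The 1515 analysed genes whose mean input FPKM lay within the range of the SR mRNAs, 52.7 to 202, had a median of -1.64. This was close to the -1.56 of the SR mRNAs, and in the FLAG-CBFB RIP the median of those genes was -0.28. With a pseudocount of 1, genes of low FPKM cannot take such low hnRNPK values, and the part of this in the class's values was not tested. Against the median gene, the median SR mRNA was at -1.45 for hnRNPK with a pseudocount of 1 and at -0.69 with 0.1. After centring on those 1515 genes, an alternative added after seeing the data, the median SR mRNA was 0.08 above the median of that set for hnRNPK, with SRSF1 at 0.96 above and SRSF5 at 0.78 below it, and 0.10 below it for FLAG-CBFB. With FPKM rescaled without mitochondrial genes, 9 of 10 SR mRNAs were below the median gene for hnRNPK, SRSF1 being 0.61 above it, and 5 of 10 for FLAG-CBFB. With log2 CPM (counts scaled to library size) and TMM (trimmed mean of M-values) factors, 8 of 10 were below it for hnRNPK, SRSF1 being 0.93 and SRSF11 also above it, and 4 of 10 for FLAG-CBFB. SRSF1 stayed first among the 10 for hnRNPK in each of the 6 alternatives that could change the order. The 5 others tried move every gene by the same amount and keep the order. With no centring or centring on the median, SRSF1 stayed at -0.56 against the median gene. Its direction changed where the median was taken over another set of genes, as with a filter at a mean FPKM of 5 (0.07).

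**Figure D3:**
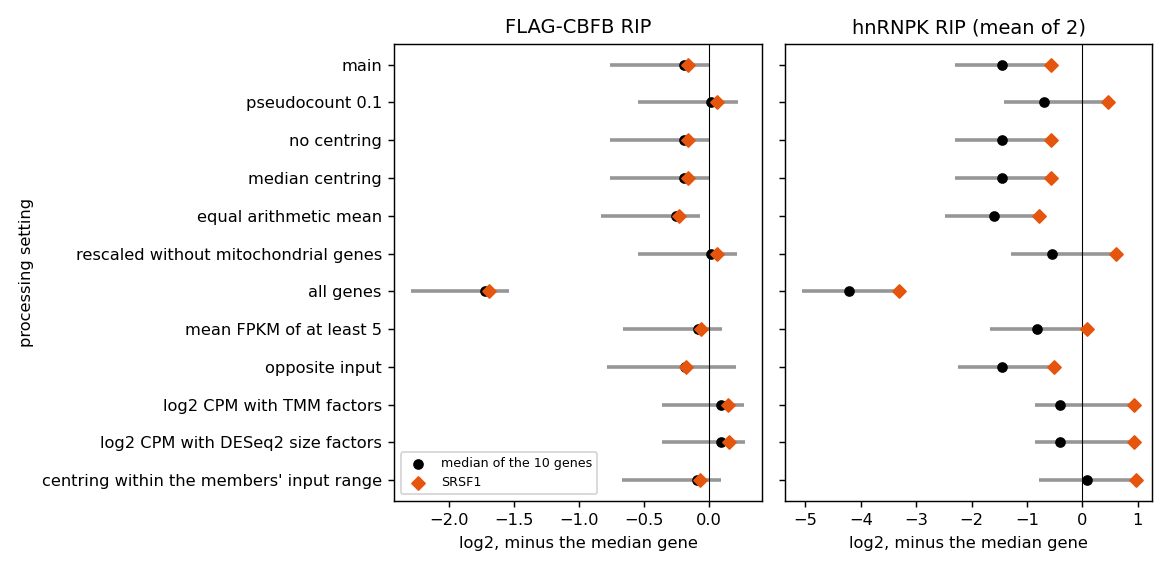
Position of the SR mRNAs against the median gene under 12 processing settings, on a log2 scale, for FLAG-CBFB (left) and for the mean of the hnRNPK repeats (right). Grey bars span the 10 genes, black points their median and orange diamonds SRSF1, which is at the upper end of the bar in every hnRNPK setting while the bar as a whole shifts along the axis, and lies far below 0 when all 56632 identifiers enter. In 5 of the settings every gene moves by the same amount, so their order is that of the first.

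The hnRNPK RIP was the only arm with repeats, and the expected counts of its 2 libraries were tested against the 1 parental input with edgeR's quasi-likelihood test. Its spread comes from the RIP repeats alone. Of the 10 SR mRNAs, 3 were lower at an adjusted p under 0.05, against 14.3% of analysed genes, 0 were higher, against 24.6%, and 7 did not pass. At an unadjusted p under 0.05 there were 5. The 3 were SRSF7 (log2 fold change -0.94, SE 0.35, edgeR adjusted p = 0.0386), SRSF5 (-0.90, SE 0.33, edgeR adjusted p = 0.0370) and SRSF6 (-0.90, SE 0.34, edgeR adjusted p = 0.0430). All of them were close to the threshold, and with DESeq2 none of the 10 passed.

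SRSF1 had the opposite sign in this test, with 20704 counts in the input and 3354 and 3046 in the repeats giving a log2 fold change of 0.81 (SE 0.33, edgeR adjusted p = 0.0601). The sign differs from that of its FPKM enrichment, a scale on which the 1515 genes of like abundance had a median of -1.64. The same test with DESeq2's size factors called SRSF1 higher (0.88, adjusted p = 0.0406) and SRSF7 alone lower, so the call for SRSF1 rests on the scale. SRSF3 had -0.74 (edgeR adjusted p = 0.0861) and SRSF4 -0.58 (edgeR adjusted p = 0.189). The remaining 4, SRSF10, SRSF9, SRSF2 and SRSF11, lay between -0.43 and 0.07 with edgeR adjusted p-values of 0.347 to 0.885. The median fold change was -0.50 for the SR mRNAs and -0.10 for all analysed genes.

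**Figure D4:**
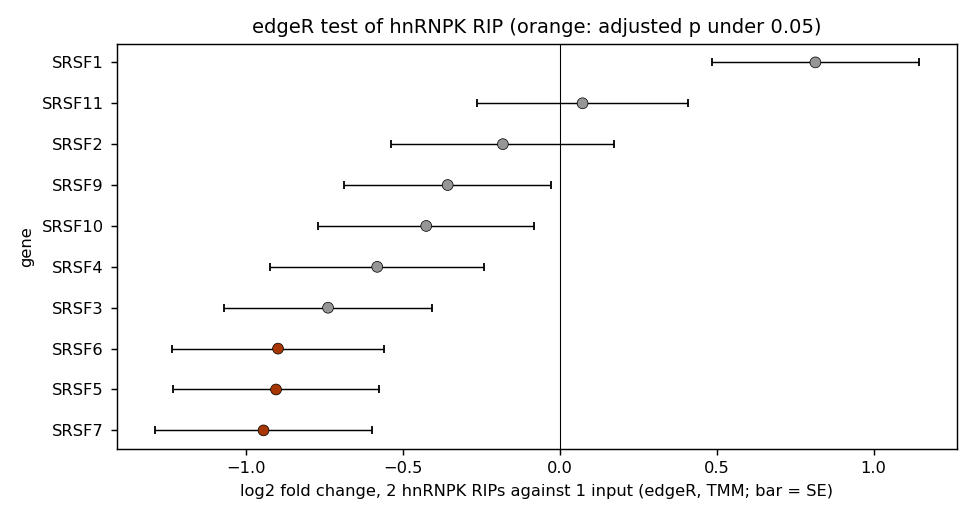
Log2 fold change of the 10 SR mRNAs in 2 hnRNPK RIPs against 1 parental input from edgeR with TMM factors, with bars of 1 SE. SRSF5, SRSF6 and SRSF7 (orange) passed an adjusted p of 0.05 and lie near -0.9, SRSF1 lies at 0.81, and the other 6 lie between -0.74 and 0.07.

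The deposited tables also give the mean length of the transcripts to which a gene's reads were assigned, weighted by abundance, which moves when reads are assigned to other isoforms. SRSF5 had 888 nt in the parental input against 1101 and 1196 nt in the hnRNPK RIPs. It had 1108 nt in the FLAG-CBFB cell input and 1407 nt in the RIP from those cells. SRSF5 was the only one of the 10 over 1.2 times longer in the FLAG-CBFB RIP than in the input of the same cells (1.27 times), a ratio that 5.73% of genes with at least 100 counts passed. In the hnRNPK RIPs, SRSF5 (1.24 and 1.35 times) and SRSF11 (1.43 and 1.26 times) were over 1.2 times longer than in the parental input in both repeats, as were 13.0% of genes. No SR mRNA became shorter by the same factor.

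The inputs themselves differed in this measure. SRSF11 had 1589 nt in the parental input and 2399 in the FLAG-CBFB cell input, and 2745 in the FLAG-CBFB RIP. Against the parental input, 3 of the 10 were over 1.2 times longer in the FLAG-CBFB cell input: SRSF5 (1.25 times), SRSF10 (1.24 times) and SRSF11 (1.51 times). This held for 16.1% of genes. When the hnRNPK repeats were set against the FLAG-CBFB cell input, none of the 10 passed in both repeats, and SRSF5 was at 0.99 and 1.08 times and SRSF11 at 0.95 and 0.83 times. The longer SRSF5 and SRSF11 in the hnRNPK RIPs thus rest on the 1 parental input, in which SRSF1 and SRSF10 were also shorter than in every other library (1896 against 2168 to 2309 nt, and 1752 against 2050 to 2298 nt). SRSF6 stayed between 3757 and 3779 nt in all 5 libraries.

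**Figure D5:**
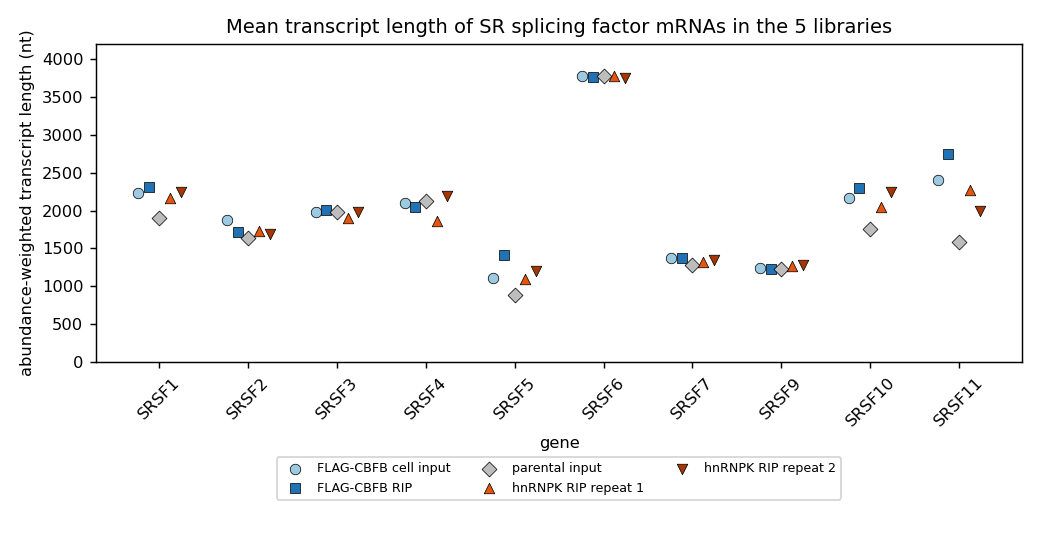
Abundance-weighted mean transcript length, in nt, of the 10 SR mRNAs, with 1 point per library. SRSF5, SRSF10 and SRSF11 are shortest in the parental input (888, 1752 and 1589 nt) and longer in the other 4 libraries, while SRSF6 has about the same length in all 5.

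The transcripts annotated to these genes include many that are not productive mRNAs. The tables list 106 transcripts for the 10 genes, of which 98 were found in GENCODE 29. There, 38 of them are coding, 19 are targets of nonsense-mediated decay, 23 retain an intron and 18 are other processed transcripts. SRSF5 has 8 coding transcripts of 526 to 2815 nt and 8 with a retained intron of 546 to 3044 nt. SRSF7 has the most decay targets (6), and SRSF3 and SRSF6 have 1 each beside a single coding transcript. Gene totals do not separate these classes, which overlap in length, so whether a RIP held more of the productive or of the unproductive form could not be read from them.

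The SR mRNAs hold less C than the transcripts most enriched with either protein. In the principal GENCODE 29 transcript, which for SRSF3, SRSF5 and others of the 10 is longer than the mean assigned length, C made up 17.2% (SRSF3) to 23.3% (SRSF4) of the bases, and all 10 were below the median of 23.96% over the 10531 analysed protein-coding genes. The median was 30.1% for the 743 of these genes above 2 with hnRNPK, 23.2% for the 698 below -2, and 32.4% for the 375 above 2 with FLAG-CBFB. The motif CCCC, counted on the transcript strand with overlaps allowed, occurred in all 10 SR mRNAs and in 98.2% of all transcripts, so its density says more than its presence. Across the 10531 genes, which are not independent replicates and share the same libraries, CCCC per kb correlated with enrichment at r = 0.35 for hnRNPK and 0.43 for FLAG-CBFB, as a description only.

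SRSF1, the highest of the family in the hnRNPK RIPs, also had the densest CCCC, 12 in 1513 nt or 7.93 per kb, against a median of 4.53 per kb. SRSF2 (6.59 per kb) and SRSF9 (5.83 per kb) were the only others above that median. The SRSF1 transcript counted, of 1513 nt, is shorter than the mean assigned length of SRSF1, 1896 to 2309 nt over the 5 libraries. The CCCC density of the SRSF1 RNA measured is therefore not known. SRSF3 had 0.95 per kb and SRSF7 1.21, and both were low in the hnRNPK RIPs. The order was not followed throughout, since SRSF11, next after SRSF1 in enrichment, had 1.32 per kb, and SRSF5, the lowest, had 2.49. For the overlapping motif TCCC the order differed again: SRSF5 had the highest density, 7.10 per kb against a median of 4.48. TCCC occurred in 99.5% of all transcripts.

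Several of these genes overlap neighbours or have pseudogene copies, so some reads could be shared. The strand setting of the counting is not given in the sources used here. SRSF9 overlaps GATC on the opposite strand, and the counts of GATC equalled 13.3% to 16.3% of those of SRSF9 in the inputs and the FLAG-CBFB RIP but 57.7% and 62.2% in the hnRNPK RIPs. Without strand, reads of SRSF9 and GATC cannot be told apart where they overlap, and the part of this in the SRSF9 value was not tested. SRSF2 overlaps MFSD11 (4.05% to 7.64%), and SRSF1 shares a strand with AC015813.2, which had 740 counts in the parental input, 3.57% of those of SRSF1, and 0.28% to 2.28% elsewhere. The 11 processed pseudogenes named after members reached at most 0.16 FPKM.

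Genes that work with SR proteins included some at the top of the scale. Of 21 other SR and SR-related genes, 19 were analysed, with a median of -0.32 for FLAG-CBFB and -1.12 for hnRNPK. The edgeR test called 4 of them higher and 2 lower. For this and the lists that follow, the shares over all analysed genes are the 24.6% higher and 14.3% lower given above, and the lists were not matched to them on abundance. SRRM2, a scaffold of nuclear speckles, was highest for both proteins: its FPKM was 425 and 553 in the FLAG-CBFB cell input and RIP, and 498 in the parental input against 393 and 375 in the hnRNPK RIPs. These gave enrichments of 1.72 and 2.27 ± 0.00. SON, another speckle scaffold, was lowest for FLAG-CBFB (-1.05), and U2AF1, which recognizes the end of the intron, was lowest for hnRNPK (-2.55 ± 0.20).

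The kinases, phosphatase and transport factors that act on SR proteins had no member above 2. Their 11 genes had medians of -0.64 and -0.80, and edgeR called 1 higher and 1 lower. DYRK1A, a kinase that phosphorylates splicing factors, was the higher one (enrichment 0.80 ± 0.16, log2 fold change 1.80, edgeR adjusted p = 0.000792), and PPP1CA, a catalytic subunit of protein phosphatase, the lower (-2.09 ± 0.11, log2 fold change -1.06, edgeR adjusted p = 0.0161). In the FLAG-CBFB RIP the values ran from -0.99 (PRPF4B) to -0.15 (CLK1), both kinases.

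Among 10 nonsense-mediated decay factors, edgeR called 3 higher and 4 lower. SMG6, the endonuclease of the pathway, was highest for both proteins (2.38 and 3.29 ± 0.31), and UPF1, its helicase, lowest for both (-1.28 and -1.34 ± 0.19). The 20 hnRNP mRNAs had medians of -0.46 and -1.89, with 8 below -2 in the hnRNPK RIPs, against 6.24% of all analysed genes and a median of -1.64 for genes as abundant as the SR mRNAs, and 4 called higher and 8 lower by edgeR. HNRNPUL1 was highest for both (0.85 and 3.52 ± 0.06), SYNCRIP lowest for FLAG-CBFB (-1.18) and HNRNPL lowest for hnRNPK (-2.57 ± 0.71). Of 9 SF3A and SF3B subunits, edgeR called 3 higher and 3 lower, and SF3A2, at 6.38 and 5.94 ± 0.04, was far above SF3B2 (-0.58 for FLAG-CBFB) and SF3B5 (-2.44 ± 0.10 for hnRNPK).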

How the data were processed

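The deposited gene tables hold RSEM expected counts, FPKM and mean transcript length per gene. Per the labels, total RNA was prepared with an mRNA kit, and the submitters' notes name Trimmomatic, STAR, RSEM and hg19. Versions, annotation and strand setting are not given in the sources used here. The authors' deposited FPKM include mitochondrial reads in their denominator. No values were pooled, and TPM were not used. Gene names came from GENCODE 29 (50276 by identifier and 1221 by transcripts). The SR genes and the gene lists were chosen with earlier results of these data known.

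Expected counts were rounded and tested with edgeR 4.0.16 in R 4.3.3 (TMM, quasi-likelihood, Benjamini-Hochberg over 11764 genes). DESeq2 1.42.0 was an alternative, and Python 3.11.15 was used for the rest. The edgeR step was tested on simulated counts. Enrichment used a pseudocount of 1. Changes on this scale understate those of low genes. Counting errors are 95% intervals from the expected counts and assume independent fragments. A count of 3 is 2.81e-06% to 4.30e-06% of a library. Named were all SR genes, RUNX1, GAPDH, the genes of both target proteins and, from each list, the highest and lowest gene for each protein with at least 50 counts. The transcripts of the target proteins were CBFB (0.67 and -1.03 ± 0.10) and HNRNPK (-0.59 and -2.59 ± 0.22). Principal transcripts follow APPRIS, then length.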

Additional observations from a re-analysis of the deposited data

How the results depend on the processing

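The median enrichment of the SR mRNAs depended on the scale. In the FLAG-CBFB RIP it was -0.38 as reported and -0.18 with a pseudocount of 0.1, -1.72 with no centring, -0.19 with centring on the median, -2.63 with equal arithmetic means, -0.16 with FPKM rescaled without mitochondrial genes, -1.40 with all genes, -0.30 with a filter at a mean FPKM of 5, 0.083 with log2 CPM and TMM factors, 0.13 with log2 CPM and DESeq2 size factors, and -0.17 with centring within the range of the SR mRNAs. The number below -2 became 3 with no centring and 10 with an equal arithmetic mean. In the hnRNPK RIPs the median was -1.56 as reported and, in the same order but without centring on the median, -1.11, -4.21, -4.95, -0.97, -3.60, -1.11, -0.65, -0.48 and -0.32. The number below -2, 2 as reported, was 10 with no centring, an equal arithmetic mean or all genes, 1 with centring on the median or both repeats required, and 0 in the other 6 of these settings. With a 2-fold threshold 9 were called. Leaving out an hnRNPK repeat gave 1 to 2, SRSF7 losing its call without repeat 1. The median difference between the inputs, 0.00, became 0.25 with an equal arithmetic mean and 0.060 with log2 CPM and TMM factors.

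In the edgeR test, DESeq2 size factors gave 1 higher and 1 lower SR mRNA in place of 0 and 3, and DESeq2 0 and 0, with 2795 genes higher and 846 lower against 2891 and 1677. Without the filter 5 were lower, with 3328 and 3443 of 24642 genes, and with both inputs as 1 group SRSF7 lost its call (edgeR adjusted p = 0.0679). The cause of these differences was not tested. A fit without an hnRNPK repeat has no residual degrees of freedom and was not run as a test. The number of SR mRNAs over 1.2 times longer became 0 for both proteins at a ratio over 1.5, 0 for hnRNPK with at least 1000 counts, where 2 of the 10 could be measured, and 4 for FLAG-CBFB and 0 for hnRNPK with the opposite input. No paired analysis was possible because no more than 1 replicate number occurs in both a RIP arm and its input. Depth was not limiting for the family: the lowest count of an SR mRNA in any library was 416 (SRSF10 in an hnRNPK RIP). The limits are the single inputs, the single FLAG-CBFB RIP and the mitochondrial share of the RIPs.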
